A study of Mus musculus with 6 samples.

Results

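The 55 genes described here encode proteins that carry a cell through mitosis and segregate its chromosomes. They were chosen by symbol from a fixed list and make up 55 of the 21851 genes in the deposited tables. All 55 were also among the 10676 genes with enough signal to be tested, none of them through the diet group in which it was higher, since each exceeded 5 FPKM in all 6 libraries. Their transcripts were quantified by RNA-seq in LT-HSCs (long-term haematopoietic stem cells, which maintain the blood for life) that had been sorted from bone marrow by the phenotype Lin- c-Kit+ Sca1+ CD34- CD135-. The donors were wild-type (WT) mice fed for 3 months with a control diet (CD), represented by 3 libraries, or with a diet high in cholesterol (HCD), also represented by 3. Age, sex, strain, the composition of the diets and any pooling of animals are not given in the labels. Nor do they state if the 3 libraries of a diet are separate mice, so the p-values reflect the spread among these libraries alone, and that spread may be technical. The comparison addresses how gene expression in these cells differed between the diets.

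Most adult LT-HSCs rest outside the cell cycle and divide rarely, whereas their progenitors divide often. The transcripts of mitotic genes are made mainly in the G2 and M phases. In resting cells their promoters are held silent by the DREAM complex, and in dividing cells its MuvB core activates them together with B-Myb and FOXM1 through a promoter sequence named the cell cycle genes homology region (CHR). The CCAAT box, bound by the factor NF-Y, is the other element known from these promoters. At mitosis, cyclin B with Cdk1 drives entry, condensin and topoisomerase II compact and untangle the chromosomes, kinetochores attach them to the spindle, the checkpoint waits for attachment, and the anaphase-promoting complex then releases the sister chromatids.

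Values are FPKM, fragment counts scaled to transcript length and library depth, and so can be compared between genes per length. Depth, worked out from what a single read adds to weakly expressed genes, was 18823800 to 19981200 reads or fragments per library. HCD replicate 2 stood apart. The squared differences between libraries were set against those of sampling, over genes in a limited range of estimated reads. They were 2.31 to 2.72 times those of sampling within CD and 2.39 times between HCD replicates 1 and 3. They were 5.66 and 6.68 times for HCD replicate 2 against the other HCD libraries. Transcripts of 2 surface proteins that the sort selects against were abundant, with 464 FPKM for Cd34 and 109 FPKM for Flt3 (CD135) over all 6 libraries, and the libraries are therefore called by their label. Markers of granulocyte and monocyte progenitors were higher under HCD in 5 of 5 tested (of 7 listed), and their summed FPKM was 869 to 897 in CD and 1607 to 1778 in HCD. Megakaryocyte markers were higher in 3 of 4 tested (of 6 listed), with sums of 50.3 to 55.1 in CD and 82.8 to 96.0 in HCD. Of 8 stem cell markers 2 were higher and 3 lower, with sums of 139 to 141 in CD and 130 to 132 in HCD. The sums follow the most abundant of these markers. By gene, 5 of the 8 fitted changes were above 0, and the median log2 change was 0.08. Macrophage markers (1 higher and 3 lower of 5 tested, 7 listed) summed to 13.6 to 14.1 in CD and 10.4 to 12.6 in HCD. Of T and NK cell markers 2 were higher and 1 lower of 3 tested (of 8 listed, with Cd3e listed at 0). Their sums were 105 to 110 in CD and 129 to 151 in HCD. Nearly all of that sum was 1 gene, since the means of the 3 were 120, 1.56 and 0.94 FPKM. Sums overlapped between the diets for erythroid markers (1 higher and 1 lower of 6 tested, 10 listed), at 42.5 to 53.8 over all libraries. They also overlapped for B cell markers (1 lower of 4 tested, 8 listed), at 26.6 to 35.8. The part of these shifts in the results below was not tested, and in bulk RNA fewer cells of a type and less RNA per cell cannot be told apart.

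Because mitotic genes share promoter elements, the promoters of the 55 genes were read from the mouse RefSeq promoter table (GRCm38.p6), which held 45 of them. Both elements were searched on either strand from 250 bases before to 50 after the annotated start, the CHR as TTTGAA and the CCAAT box as CCAAT. The sequences of the 8 genes that passed the test with lower values under HCD are shown first, from 220 bases before to 30 bases after the start, 5′ to 3′ on the gene's strand. Capitals mark the CHR (TTTGAA or TTCAAA) and the CCAAT box (CCAAT or ATTGG) where they lie in the stretch shown. They are Top2a (chr11:99024160-99024409, minus strand), Mki67 (chr7:135716350-135716599, minus strand), Cenpf (chr1:189688057-189688306, minus strand), Spc25 (chr2:69206184-69206433, minus strand), Bub1 (chr2:127831830-127832079, minus strand), Bub1b (chr2:118597991-118598240, plus strand), Kif15 (chr9:122950861-122951110, plus strand) and Nuf2 (chr1:169531435-169531684, minus strand).
Top2a: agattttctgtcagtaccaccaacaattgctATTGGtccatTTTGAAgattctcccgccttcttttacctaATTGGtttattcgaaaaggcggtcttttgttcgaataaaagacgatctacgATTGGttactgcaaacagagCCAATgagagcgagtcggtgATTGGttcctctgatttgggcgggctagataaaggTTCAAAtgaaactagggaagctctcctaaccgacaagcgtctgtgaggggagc
Mki67: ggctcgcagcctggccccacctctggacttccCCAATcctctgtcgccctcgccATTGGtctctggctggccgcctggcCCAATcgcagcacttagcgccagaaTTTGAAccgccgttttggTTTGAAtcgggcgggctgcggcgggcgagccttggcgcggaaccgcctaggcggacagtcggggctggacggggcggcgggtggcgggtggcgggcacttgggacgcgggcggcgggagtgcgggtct
Cenpf: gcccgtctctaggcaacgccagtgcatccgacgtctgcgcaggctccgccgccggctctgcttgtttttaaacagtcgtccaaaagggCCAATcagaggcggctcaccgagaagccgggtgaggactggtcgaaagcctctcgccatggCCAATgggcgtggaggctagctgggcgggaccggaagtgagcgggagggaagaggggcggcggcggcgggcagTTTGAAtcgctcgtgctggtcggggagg
Spc25: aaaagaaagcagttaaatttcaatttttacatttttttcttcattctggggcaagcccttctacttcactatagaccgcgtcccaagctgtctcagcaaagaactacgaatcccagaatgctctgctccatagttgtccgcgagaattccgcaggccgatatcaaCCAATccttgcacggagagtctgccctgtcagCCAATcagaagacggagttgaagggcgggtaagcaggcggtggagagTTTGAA
Bub1: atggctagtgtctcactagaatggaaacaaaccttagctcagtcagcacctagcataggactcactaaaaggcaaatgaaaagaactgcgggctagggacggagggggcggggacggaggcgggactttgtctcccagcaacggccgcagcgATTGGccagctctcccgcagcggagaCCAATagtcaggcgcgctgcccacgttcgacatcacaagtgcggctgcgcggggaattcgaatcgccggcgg
Bub1b: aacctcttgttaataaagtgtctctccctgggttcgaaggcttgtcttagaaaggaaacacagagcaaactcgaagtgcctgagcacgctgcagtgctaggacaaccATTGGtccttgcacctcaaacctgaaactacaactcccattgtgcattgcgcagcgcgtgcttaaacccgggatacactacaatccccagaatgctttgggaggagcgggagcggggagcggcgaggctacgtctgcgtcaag
Kif15: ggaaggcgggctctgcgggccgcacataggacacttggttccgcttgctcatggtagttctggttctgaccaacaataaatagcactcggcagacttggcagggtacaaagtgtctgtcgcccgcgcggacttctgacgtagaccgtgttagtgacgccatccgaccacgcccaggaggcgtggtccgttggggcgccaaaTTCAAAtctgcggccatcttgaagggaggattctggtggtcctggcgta
Nuf2: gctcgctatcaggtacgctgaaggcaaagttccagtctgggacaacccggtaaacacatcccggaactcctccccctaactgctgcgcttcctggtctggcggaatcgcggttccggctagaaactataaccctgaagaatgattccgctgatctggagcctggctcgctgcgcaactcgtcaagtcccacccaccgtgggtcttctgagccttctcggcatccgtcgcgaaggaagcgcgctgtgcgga

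Top2a, Mki67, Cenpf, Spc25 and Bub1b each held both elements in the searched window, the CHR of Bub1b outside the stretch shown. By these exact letters Bub1 held the CCAAT box alone, Kif15 the CHR alone and Nuf2 neither. Variant forms of either element were not searched. For comparison, the next sequences belong to 2 genes that did not pass: Cks2 (chr13:51645012-51645261, plus strand), the most abundant of them, and Ccnb2 (chr9:70421525-70421774, minus strand), which was chosen after its values were seen because its FPKM was higher in every HCD library. Cks2 held the CCAAT box alone and Ccnb2 both elements.
Cks2: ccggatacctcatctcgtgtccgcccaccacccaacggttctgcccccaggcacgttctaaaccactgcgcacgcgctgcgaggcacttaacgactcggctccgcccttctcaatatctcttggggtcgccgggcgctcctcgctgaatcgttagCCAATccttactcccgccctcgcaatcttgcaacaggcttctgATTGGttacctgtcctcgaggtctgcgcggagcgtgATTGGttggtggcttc
Ccnb2: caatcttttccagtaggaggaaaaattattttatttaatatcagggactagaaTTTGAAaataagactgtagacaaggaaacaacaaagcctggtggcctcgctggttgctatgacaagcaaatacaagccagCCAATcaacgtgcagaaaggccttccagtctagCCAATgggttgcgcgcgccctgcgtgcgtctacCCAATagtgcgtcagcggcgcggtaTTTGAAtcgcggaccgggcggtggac

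A CHR match was present in 31 of the 45 promoters (68.9%), against 18.1% of all 27025 promoters of the same length. A CCAAT match was present in 32 (71.1%, against 37.9%), and both in 26 (57.8%, against 7.12%). More than 1 CCAAT match was found in 46.7% of the mitotic promoters and 12.2% of all. The 40 CHR matches lay close to the start, with a median first base at -1 and 30 of them between 50 bases before the start and the end of the window. The 73 CCAAT matches lay further upstream, with a median first base at -65. The CHR was present in 6 of 8 genes that passed the test with lower values (75%) and in 25 of 37 that did not pass (67.6%), and both elements in 5 of 8 (62.5%) and 21 of 37 (56.8%). More than 1 CHR was found in 37.5% and 16.2% of these promoters, and more than 1 CCAAT in 62.5% and 43.2%. The differences between these 8 and 37 promoters were not tested. A match describes letters in the sequence and is not a measured binding site.

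**Figure D1:**
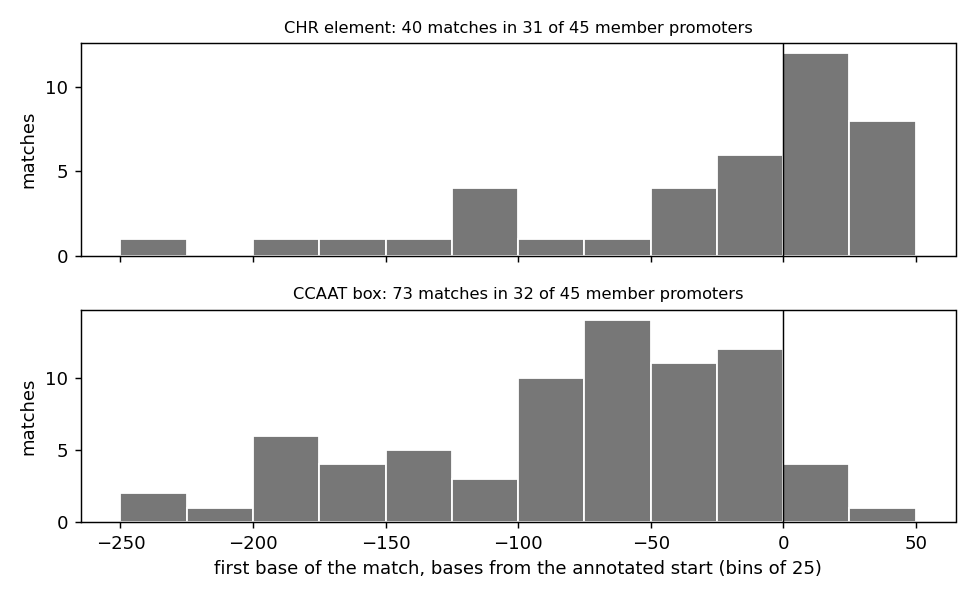
Positions of CHR matches (top) and CCAAT matches (bottom) in the 45 promoters with an entry, as the number of matches per bin of 25 bases against the distance of the first base from the annotated start (vertical line). CHR matches gather around the start (median -1) and CCAAT matches upstream of it (median -65).

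The 55 genes were well expressed in both diets. Their mean over the 6 libraries ran from 6.06 FPKM for Cdc25c to 129 FPKM for Top2a, with a median of 26.3 FPKM against 12.7 FPKM for all genes tested, and 43 of 55 lay above the latter. Replicates were close: the SD within a diet group had a median of 4.09% of the mean, and the largest was 22.9%.

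Under HCD 8 of the 55 genes fell and none rose, by limma on log2(FPKM + 1) with Benjamini-Hochberg adjustment over all genes tested and a threshold of 0.05. The 8 were Cenpf, Mki67, Bub1, Spc25, Kif15, Top2a, Nuf2 and Bub1b. They are 14.5% of the mitotic genes, where 7.66% of all tested genes fell, 6.28% rose and 13.9% changed in either direction. At an unadjusted limma p under 0.05 there were 19 lower and 3 higher of the 55. Among all 10676 genes tested there were 1955 lower and 1349 higher. The changes were small: the median log2 change was -0.08 (-0.06 without HCD replicate 2), against -0.03 for all genes tested (-0.02), and the range was -0.40 to 0.21. The fitted change was below 0 for 42 of 55 genes (76.4%), against 57.9% of all genes. In 25 genes (45.5%, against 22.7% of all genes) every HCD library lay below every CD library, in 5 genes (9.09%, against 15% of all genes) every HCD library lay above, and in 25 the groups overlapped.

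The number of genes past the threshold depended on single libraries. It was 2, Cenpf and Mki67, without CD replicate 1, 2 or 3 or without HCD replicate 1. Without HCD replicate 3 it was 6, with Kif23 added to Bub1, Kif15, Cenpf, Top2a and Mki67. Without the outlying HCD replicate 2 it was 12, of which 10 were lower: all 8 genes, Smc4 (adjusted p = 0.0241) and Tpx2 (0.0326) fell, while Cenpa (0.0138) and Ccnb2 (0.0472) rose. With the replicate number as a block in the limma fit it was 10, with Kif23 lower (adjusted p = 0.017) and Cenpa higher (0.0239).

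**Figure D2:**
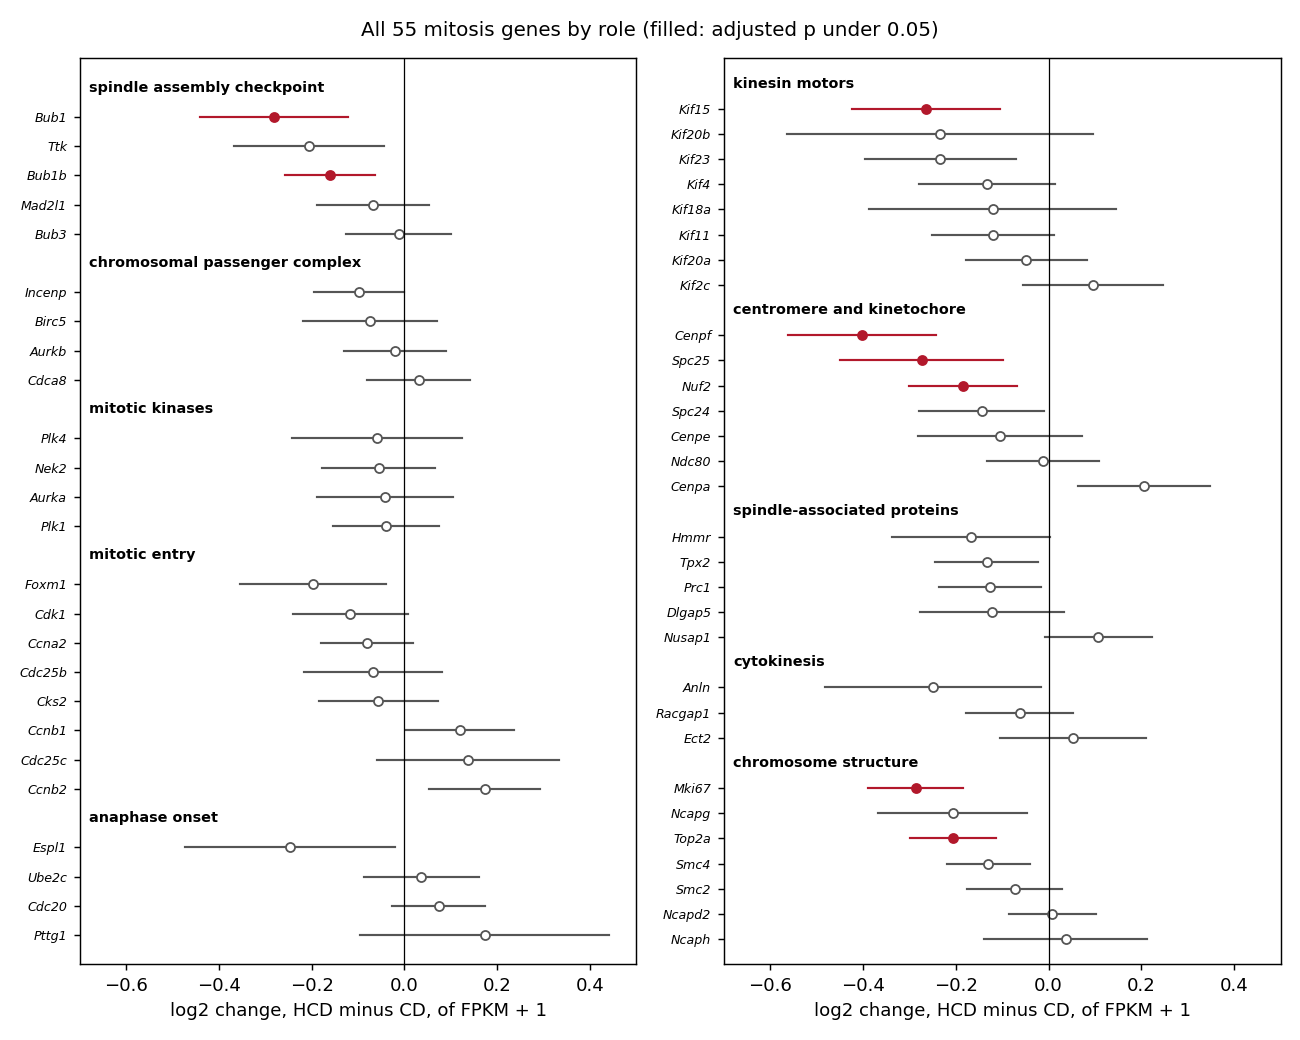
Log2 change (HCD minus CD) of FPKM + 1 for all 55 genes, grouped by role, with the 95% confidence interval from limma (n = 3 libraries per diet). Filled points are the 8 genes past an adjusted p of 0.05, all of them below 0, and Cenpa had the highest value (0.21).

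The kinetochore is the protein assembly that binds chromosomes to spindle microtubules. Of the 8 genes that fell, 3 were listed under the centromere and kinetochore, while Bub1 and Bub1b were counted with the checkpoint below. Cenpf, a large coiled-coil protein that joins the outer kinetochore in G2 and M phase, had 10.5, 11.4 and 10.4 FPKM in CD and 7.51, 7.83 and 8.35 in HCD. Every HCD library lay well below every CD library. The mean fell from 10.8 ± 0.54 to 7.89 ± 0.43 FPKM (SD, n = 3 each), or by 26.6%, which was the largest fall of the 55 in this fit (log2 change -0.40, SE 0.07, limma adjusted p = 0.00935). After removal of the length trend described below, Cenpf had a log2 change of -0.24 and did not pass (adjusted p = 0.0804).

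Nuf2 and Spc25 belong to the Ndc80 complex, the main microtubule coupler, in which Ndc80 pairs with Nuf2 and Spc24 with Spc25. Nuf2 had 29.5, 31.1 and 29.5 FPKM in CD and 26.4, 27.1 and 25.4 in HCD (log2 change -0.18, SE 0.05, adjusted p = 0.0448). Spc25 had 21.1, 18.8 and 22.2 FPKM in CD and 16.1, 18.3 and 16.5 in HCD (log2 change -0.27, SE 0.08, adjusted p = 0.0492). The groups were apart in both genes, but the highest HCD value of Spc25, in replicate 2, came close to the lowest CD value, also in replicate 2. Their partners did not pass the test: Ndc80 had a mean of 22.4 ± 0.87 FPKM in CD and 22.1 ± 0.52 in HCD (log2 change -0.01, 95% interval -0.13 to 0.11), and Spc24 38.0 ± 1.5 and 34.3 ± 2.2 (log2 change -0.14, adjusted p = 0.138). Within each library the ratio of Nuf2 to Ndc80 was 1.36, 1.33 and 1.33 in CD and 1.22, 1.19 and 1.15 in HCD. The HCD ratios were all lower (two-sided exact permutation p = 0.1, the smallest that 3 against 3 allows, and 0.125 adjusted over 5 ratios chosen after their values were seen). The ratio of Spc25 to Spc24 overlapped between the diets (exact permutation p = 0.3).

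Cenpa, the histone H3 variant that marks the centromere, went the other way. It had 39.5, 35.1 and 39.3 FPKM in CD and 43.9, 41.6 and 46.3 in HCD, the most abundant of the 7 centromere and kinetochore genes. All HCD values lay above all CD values. The log2 change of 0.21 (SE 0.06) had the highest value of the 55 genes but missed the threshold (limma adjusted p = 0.0618), and Cenpa passed it with the block (0.0239) and without HCD replicate 2 (0.0138). Cenpe, a kinetochore motor, had a log2 change of -0.10 (adjusted p = 0.389).

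Among the 5 genes of the spindle assembly checkpoint, which delays anaphase until every kinetochore is attached, Bub1 and Bub1b fell. Bub1, a kinase that builds the checkpoint platform on the kinetochore, had 19.4, 19.4 and 19.1 FPKM in CD and 16.2, 14.2 and 16.9 in HCD. The CD values were nearly equal and all above the HCD values, of which replicate 2 was the lowest. Its mean fell by 18.4% (log2 change -0.28, SE 0.07, limma adjusted p = 0.033). Bub1b, which encodes BubR1, an inhibitor of the anaphase-promoting complex, had 46.3, 44.8 and 46.0 FPKM in CD and 41.5, 40.0 and 40.8 in HCD. The groups did not overlap, and the mean fell by 10.8% (log2 change -0.16, SE 0.04, adjusted p = 0.0402), the smallest change among the 8.

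Bub3, the most abundant checkpoint gene and the partner of both, had 62.3, 59.5 and 65.3 FPKM in CD and 60.7, 64.0 and 60.9 in HCD, with overlapping groups (log2 change -0.01, 95% interval -0.13 to 0.10). The ratio of Bub1 to Bub3 was 0.310 ± 0.016 in CD and 0.255 ± 0.030 in HCD and lower in all 3 HCD libraries. Its exact permutation p was 0.1, the smallest possible, and 0.125 adjusted over the 5 ratios, which were chosen after their values were seen. Ttk, the kinase Mps1 that starts checkpoint signalling, was lower in every HCD library without passing the test (log2 change -0.21, adjusted p = 0.0896). Mad2l1, the checkpoint protein Mad2, overlapped (-0.07, adjusted p = 0.414).

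Chromosome structure genes included the most abundant genes that fell. Top2a, the topoisomerase that untangles sister chromatids, had 138, 136 and 139 FPKM in CD and 121, 116 and 122 in HCD. The groups were apart by more than the range within either. The mean fell from 138 ± 1.6 to 119 ± 2.8 FPKM, or by 13.3% (log2 change -0.21, SE 0.04, limma adjusted p = 0.0141). Mki67, the proliferation marker Ki-67 that coats mitotic chromosomes, had 70.2, 72.7 and 72.8 FPKM in CD and 57.9, 57.3 and 61.2 in HCD. All HCD values lay below all CD values, and the mean fell by 18.2% (log2 change -0.29, SE 0.04, adjusted p = 0.00633, and -0.14 with adjusted p = 0.117 after removal of the length trend).

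The other 5 chromosome structure genes encode condensin I, the ring that compacts chromosomes, and its subunits differed in their values. Its ATPase subunit Smc4 had 71.6, 71.2 and 72.2 FPKM in CD and 65.1, 65.2 and 66.0 in HCD. These groups were tight and did not overlap, but the log2 change of -0.13 missed the threshold (adjusted p = 0.0595). The regulatory subunit Ncapg was also lower in every HCD library (15.2 ± 0.13 against 13.1 ± 1.1 FPKM, adjusted p = 0.0859), as was Smc2 (log2 change -0.07, adjusted p = 0.305). Ncapd2, the most abundant condensin gene, had 75.7, 79.1 and 78.1 FPKM in CD and 79.3, 77.7 and 77.1 in HCD, and these groups overlapped (log2 change 0.01, 95% interval -0.09 to 0.10). Ncaph overlapped too (0.04, adjusted p = 0.778). The ratio of Ncapg to Ncaph, also chosen after its values were seen, was 0.586 ± 0.027 in CD and 0.490 ± 0.027 in HCD. It was lower in all 3 HCD libraries (exact permutation p = 0.1, the smallest possible, and 0.125 over the 5 ratios).

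Of the 8 mitotic kinesins, motors that slide or disassemble microtubules, Kif15 fell. Kif15, a plus-end motor that helps to keep the spindle bipolar, had 18.7, 18.4 and 18.1 FPKM in CD and 14.5, 14.3 and 16.8 in HCD. HCD replicate 3 was the nearest to CD but still below it. The mean fell by 17.4% (log2 change -0.26, SE 0.07, limma adjusted p = 0.0396).

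Kif11, or Eg5, the main spindle-separating motor and the most abundant of the 8, had 41.9, 41.0 and 42.5 FPKM in CD and 39.6, 35.4 and 40.4 in HCD, lower in every HCD library without passing (log2 change -0.12, adjusted p = 0.197). Kif23, the central spindle motor of cytokinesis, had 34.4, 32.1 and 36.1 FPKM in CD and 29.1, 26.4 and 31.3 in HCD. All its HCD values lay below its CD values, yet it missed the threshold (log2 change -0.23, adjusted p = 0.0628). It passed with the replicate number as a block (0.017) and without HCD replicate 3 (0.0433). Kif4, a chromosome-bound motor, was lower in every HCD library (-0.13, adjusted p = 0.195). Kif18a, Kif20a, Kif20b and Kif2c overlapped between the diets, and Kif20b had the widest interval of the 55 genes (-0.56 to 0.09), with 7.87 FPKM in HCD replicate 2 against 11.4 and 12.5 in the other HCD libraries.

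**Figure D3:**
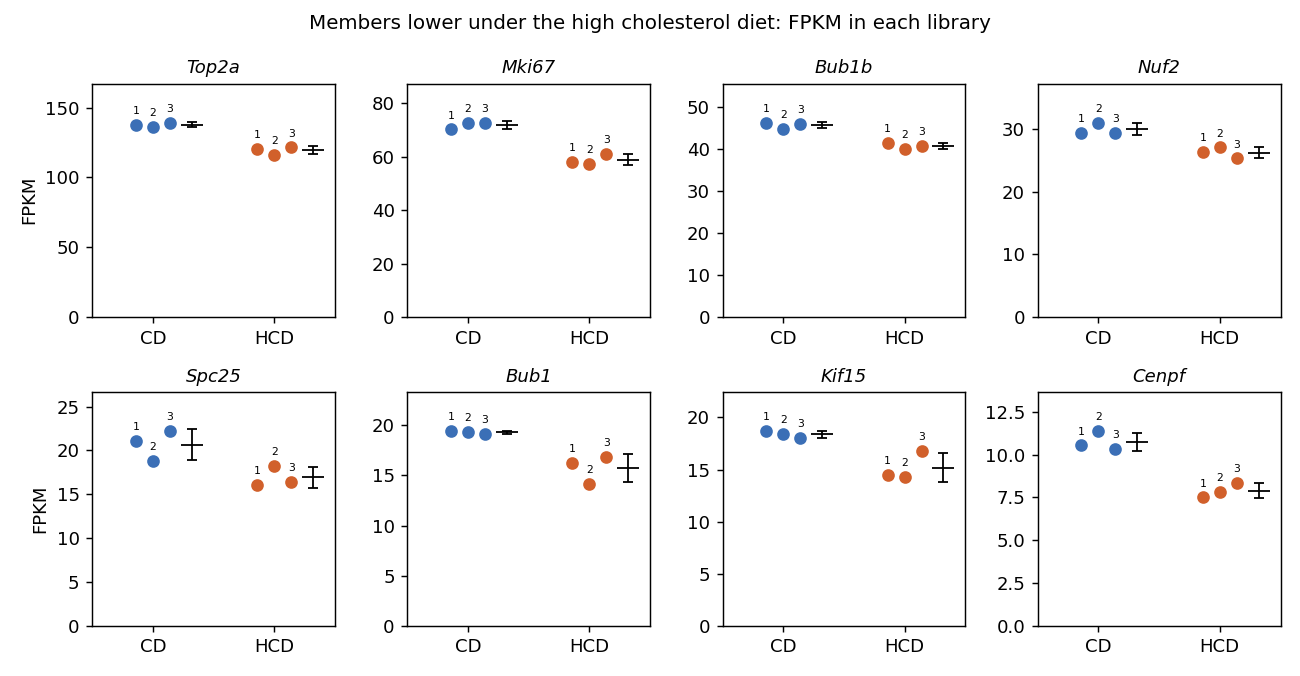
FPKM in each library for the 8 genes that fell under HCD, ordered by level. Points are libraries numbered by replicate (blue CD, orange HCD), bars are the mean ± SD (n = 3), each axis starts at 0, and in all 8 panels the HCD libraries lie below the CD libraries.

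The 8 mitotic entry genes did not share a direction, and none passed the test. Both B-type cyclins, which activate Cdk1 at the onset of mitosis, were above CD in every HCD library. Ccnb2 had 56.0, 53.0 and 49.7 FPKM in CD and 58.9, 61.0 and 59.2 in HCD (log2 change 0.17, limma adjusted p = 0.0613), and Ccnb1 had 33.8, 31.0 and 33.3 in CD and 36.0, 36.2 and 34.6 in HCD (0.12, adjusted p = 0.153). Ccna2, the cyclin of S and G2 phase, was below CD in every HCD library (46.4 ± 0.99 against 43.8 ± 0.86 FPKM, adjusted p = 0.239), as was Cdk1 (31.2 ± 0.68 against 28.7 ± 1.6, adjusted p = 0.181).

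The ratio of Ccnb2 to Ccna2 was 1.23, 1.14 and 1.05 in CD and 1.31, 1.41 and 1.37 in HCD. It was higher in all 3 HCD libraries, as follows from Ccnb2 lying above CD and Ccna2 below CD in every HCD library. The exact permutation p was therefore fixed at 0.1, the smallest possible (0.125 over the 5 ratios). This pair was also chosen after its values were seen. Foxm1, the transcription factor that activates G2 and M phase genes, was lower in every HCD library (16.7 ± 0.76 against 14.4 ± 1.1 FPKM, log2 change -0.20, adjusted p = 0.0936). Cks2, a small subunit of the Cdk1 complex and the most abundant entry gene, had 82.0, 88.1 and 92.2 FPKM in CD and 86.1, 79.9 and 86.0 in HCD, with overlapping groups (-0.06, 95% interval -0.18 to 0.07). The phosphatases Cdc25b and Cdc25c, which release Cdk1 from inhibition, overlapped too (adjusted p = 0.509 and 0.314).

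The 4 kinases that act on centrosomes and spindle held narrow changes. Plk1, the most abundant of them and a driver of entry and centrosome maturation, had 25.1, 26.0 and 26.8 FPKM in CD and 25.6, 24.6 and 25.5 in HCD, with overlapping groups (log2 change -0.04, 95% interval -0.15 to 0.07). The log2 changes of Aurka, Plk4 and Nek2 lay between -0.06 and -0.04, and of the 4 kinases only Nek2 had all HCD values below all CD values (adjusted p = 0.512). The chromosomal passenger complex, which corrects faulty attachments, held no gene past the threshold, with log2 changes from -0.10 to 0.03. Incenp, its scaffold, had 58.3, 59.1 and 61.5 FPKM in CD and 55.5, 56.2 and 55.1 in HCD, apart but not past the threshold (-0.10, adjusted p = 0.156). Cdca8, or borealin, the most abundant of the 4, had 56.8, 59.8 and 62.2 FPKM in CD and 62.6, 59.6 and 60.4 in HCD, which overlapped (0.03, adjusted p = 0.70). The kinase Aurkb (-0.02) and survivin, encoded by Birc5 (-0.07), overlapped as well.

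Anaphase onset was the only role with a median above 0 (log2 change 0.05, 4 genes, none past the test). Cdc20, the activator of the anaphase-promoting complex, had 59.3, 55.8 and 59.0 FPKM in CD and 61.3, 61.6 and 60.3 in HCD. The HCD values were all higher, by a margin that missed the threshold (log2 change 0.07, limma adjusted p = 0.29). Ube2c, the ubiquitin-conjugating enzyme of that complex and the most abundant gene of this role, had 62.6, 69.7 and 65.1 FPKM in CD and 69.7, 64.3 and 68.3 in HCD, which overlapped (0.04, adjusted p = 0.684). Espl1, or separase, the protease that cleaves cohesin, was lower in every HCD library (11.7 ± 0.61 against 9.79 ± 1.4 FPKM, -0.25, adjusted p = 0.131). Pttg1, or securin, its inhibitor, overlapped (6.21 ± 1.1 against 7.10 ± 0.80 FPKM, 0.17, adjusted p = 0.351).

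Among the 5 spindle-associated genes none passed. Tpx2, a spindle assembly factor that activates Aurora A and the most abundant of the 5, had 38.7, 38.0 and 40.6 FPKM in CD and 35.4, 36.7 and 34.6 in HCD. The groups were apart (log2 change -0.13, limma adjusted p = 0.102, and 0.0326 without HCD replicate 2). Prc1, which bundles microtubules in the central spindle, was lower in every HCD library (34.7 ± 0.68 against 31.7 ± 1.1 FPKM, adjusted p = 0.114). Nusap1, a microtubule-bundling protein, was higher in every HCD library, with 31.3, 34.0 and 33.5 FPKM in CD and 34.6, 36.2 and 35.7 in HCD (0.11, adjusted p = 0.187). Hmmr and Dlgap5 overlapped (-0.17 and -0.12). Of the 3 cytokinesis genes, Anln, the scaffold anillin, was lower in every HCD library (8.47 ± 0.41 against 7.01 ± 1.1 FPKM, -0.25, adjusted p = 0.137). Racgap1, a component of the centralspindlin complex and the most abundant of them, overlapped with 41.2, 40.1 and 42.6 FPKM in CD and 38.4, 38.7 and 41.6 in HCD (-0.06, adjusted p = 0.436), and so did Ect2 (0.05).

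By role, the lowest medians of the log2 change were those of the spindle assembly checkpoint (-0.16), the centromere and kinetochore (-0.14), the kinesins, the spindle-associated proteins and chromosome structure (-0.13 each). The genes that fell were 3 of 7 in the centromere and kinetochore, 2 of 5 in the checkpoint and 2 of 7 in chromosome structure. The kinesins held 1 of 8, and the other 6 roles none. Over all tested genes 7.66% fell. These counts per role are small, and the calls behind them depended on single libraries and on the length trend. Differences between roles were not tested.

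The 3 HCD libraries were unequal. The median log2 difference of the 55 genes from the CD mean was -0.09, -0.10 and -0.04 in HCD replicates 1, 2 and 3, and -0.01, -0.01 and 0.02 in the CD libraries. All HCD medians were thus below all CD medians, with HCD replicate 3 nearest to CD. Both also held over all tested genes. Their medians were -0.019, -0.051 and -0.016 in HCD replicates 1 to 3 and 0.004, -0.005 and 0.003 in the CD libraries. The genes below their CD mean were 42, 41 and 38 of 55 in HCD replicates 1 to 3. In CD replicates 1 to 3 they were 34, 30 and 18. Over all 10676 tested genes the counts were 5790, 6251 and 5699 in HCD and 5067, 5707 and 5097 in CD. The summed FPKM of the 55 was 1819, 1823 and 1870 in CD and 1756, 1709 and 1773 in HCD. HCD replicate 2 held the lowest of the 3 HCD values for 28 of 55 genes.

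Change and transcript length went together across these genes, as they did across all genes. FPKM is divided by length, and the measure of length was the longest annotated transcript. Across the 55 genes, which share libraries and are not independent, the Spearman rank correlation between length and log2 change was -0.50, and it was -0.39 without HCD replicate 2. Across 10354 tested genes with a length it was -0.25, and -0.15 without HCD replicate 2. The longest of the 55 were Cenpf (11130 bases) and Mki67 (10061 bases), which both fell. Of 22 genes over 4000 bases, 4 fell (18.2%, against 10.1% of all genes of that length) with a median change of -0.13 against -0.08. Of 25 genes of 2000 to 4000 bases, 3 fell (12%, against 6.82%), with medians of -0.06 and -0.02. Of 8 genes under 2000 bases, 1 fell (12.5%, against 5.22%), with medians of -0.03 and 0.02. With the trend of each library against length removed, Bub1 and Spc25 remained lower by limma and Cenpa became higher (adjusted p = 0.0317). The log2 changes of these 3 were then -0.26, -0.30 and 0.23. The fall of Cenpf shrank from -0.40 to -0.24 (adjusted p = 0.0804), smaller than those of Bub1 and Spc25, and that of Mki67 from -0.29 to -0.14 (0.117). The change moved less for Top2a (-0.21 to -0.15, adjusted p = 0.0507), Kif15 (-0.26 to -0.22, 0.0559), Bub1b (-0.16 to -0.14, 0.079) and Nuf2 (-0.18 to -0.16, 0.117), which also missed the threshold.

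**Figure D4:**
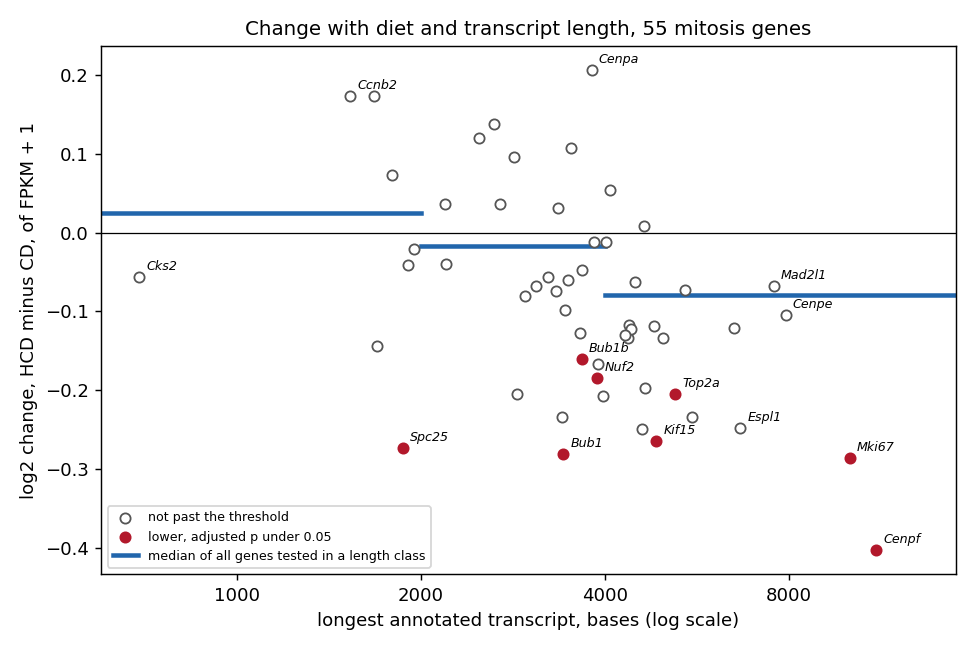
Log2 change (HCD minus CD) of FPKM + 1 against the longest annotated transcript (bases, log scale) for the 55 genes. Filled points are the 8 genes that fell, blue lines are the median of all tested genes under 2000 bases (0.02), from 2000 to 4000 (-0.02) and over 4000 (-0.08), and the longest genes, Cenpf and Mki67, hold the lowest values.

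The 122 other genes of mitosis on a wider list, from cohesin to the anaphase-promoting complex, held 9 genes that fell (7.38%) and 1 that rose, and the median log2 change was -0.06. The share that fell is near the 7.66% of all tested genes. Of the single genes, Wee1, the kinase that restrains Cdk1, fell from 28.4 ± 0.65 to 22.3 ± 0.99 FPKM (log2 change -0.34, limma adjusted p = 0.00633). Anapc11, the catalytic subunit of the anaphase-promoting complex, fell by 0.37 on the log2 scale from 13.2 ± 0.63 FPKM (adjusted p = 0.00804). Cohesin regulators contributed Esco2, the acetyltransferase that locks cohesion (12.9 ± 0.68 to 9.66 ± 0.41 FPKM, adjusted p = 0.00893), Pds5a (adjusted p = 0.0185) and Pds5b (0.0243). Rbl1, which encodes the DREAM subunit p107, fell by 0.22 on the log2 scale from 25.9 ± 0.74 FPKM (adjusted p = 0.0209). Tfdp1, which encodes the E2F partner DP1, fell from 75.9 ± 2.1 to 66.8 ± 1.3 (0.0269). Fzr1, or Cdh1, the activator of the anaphase-promoting complex in late mitosis and G1, was the gene that rose, from 33.9 ± 0.81 to 39.1 ± 1.1 FPKM (log2 change 0.20, adjusted p = 0.0251).

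Of 43 DNA replication genes, which act in S phase, 16 fell (37.2%) and none rose. Over all tested genes 7.66% fell and 6.28% rose. The median log2 change of the replication genes was -0.16, against -0.03 for all tested genes. Pole, the leading-strand polymerase, fell from 22.4 ± 0.79 to 17.4 ± 0.73 FPKM (log2 change -0.35, limma adjusted p = 0.0075). The helicase subunit Mcm6 fell from 165 ± 1.5 to 137 ± 6.4 FPKM (-0.27, adjusted p = 0.00938). The median log2 difference of the replication genes from the CD mean was -0.15, -0.17 and -0.17 in HCD replicates 1 to 3, so that here the 3 HCD libraries were close. The difference between the mitosis and replication lists was not tested.

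**Figure D5:**
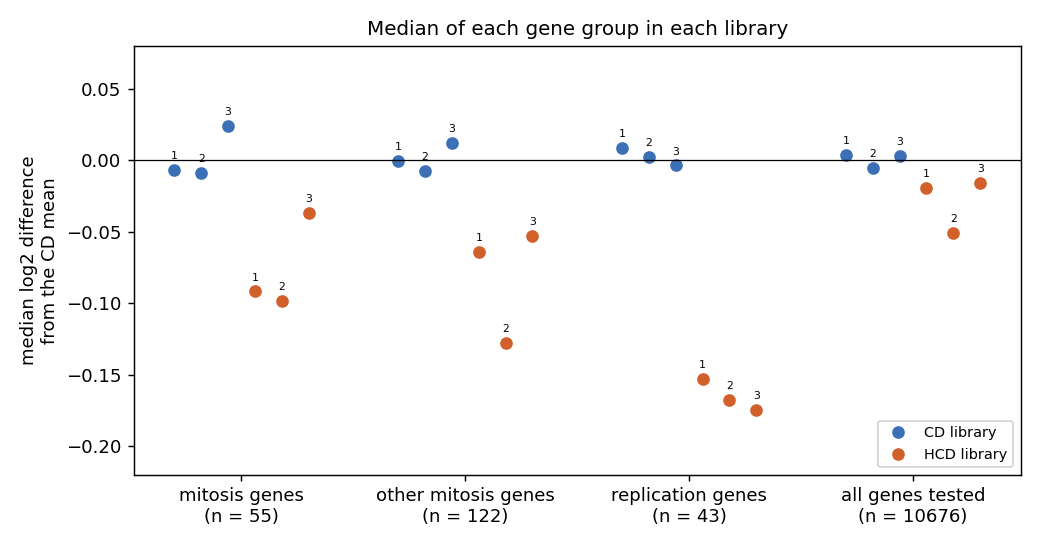
Median log2 difference from the CD mean in each library for the 55 mitosis genes, 122 other mitosis genes, 43 replication genes and all 10676 tested genes. Points are libraries numbered by replicate (blue CD, orange HCD); the HCD medians of the 55 genes run from -0.10 to -0.04 and those of the replication genes from -0.17 to -0.15.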

How the data were processed

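The authors deposited 1 table per library with a value per gene. The submitters' processing notes name fastp, HISAT2, StringTie and the builds GRCm38 and mm10. Their versions, the gene annotation and any filter were not given in the sources used here. FPKM is the unit that the deposited numbers fit, but the file headers do not separate FPKM from RPKM. Depth was estimated from the size of 1 read in low values. Rows carrying a date in place of a symbol (27 of 21878, 0.124% to 0.132% of the FPKM) were left out.

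Deposited FPKM values were transformed to log2(FPKM + 1), so fold changes of low genes are understated, and fitted by limma 3.58.1 under R 4.3.3 (robust, trended empirical Bayes, two-sided). A gene was tested if 3 or more libraries reached 1 FPKM, and p was adjusted by Benjamini-Hochberg over all of them. The script was tested on simulated data. Alternatives were pseudocount, filter, scaling, replicate block, length trend and leaving out each library.

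The 55 genes and all lists were chosen with earlier results of these data known. Values in every library are given for genes past the threshold, the largest rise, the most abundant gene of each role and genes that define a role. Up to 8 genes past the threshold with the smallest p were named from the other lists. Promoters are those of the 8 genes that passed and of the most abundant that did not. Ccnb2 and the 5 ratios were chosen after their values were seen.

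Deviations from the group means correlated at 0.103, 0.292 and 0.166 between same-numbered CD and HCD libraries, and at -0.25 to 0.098 between others. The lowest same-numbered value, 0.103, was close to the highest of the others, 0.098. The largest, 0.292, was that of replicate 2, which includes the outlying HCD library. The labels do not say that the numbers pair the libraries. Transcript lengths are from GENCODE vM21 (GRCm38), found for 97.0% of tested genes.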

Additional observations from a re-analysis of the deposited data

How the results depend on the processing

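The median change of the 55 genes stayed below 0 under every alternative run (-0.10 to -0.05), and no gene that passed changed sign. All 8 genes kept their calls with a pseudocount of 0.1, a filter of 5 FPKM and the replicate block. Over all genes, leaving out 1 library gave 435 to 2672 genes past the threshold against 1488, and among the 55 it gave 2 to 12 against 8. The number among the 55 was 4 without a filter on low values, with more genes tested, and 3 with the length trend removed. It was 7 with quantile normalization and 6 with TMM factors (trimmed means of log ratios), each including Cenpa as higher and keeping 5 of the 8. Under TMM factors 606 of all genes were lower and 752 higher, against 818 and 670.

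With the replicate number as a block, 1873 of all genes and 10 of the 55 passed. The block added Cenpa and Kif23 and changed no other call among the 55. With the length trend removed and the replicate block together, 5 of the 55 passed. The cause of these changes was not tested. Estimated from FPKM and the longest annotated transcript, the 55 genes had about 177 or more reads in each library. Where shorter transcripts were expressed, the reads would be fewer. The squared differences within CD were 2.31 to 2.72 times those of sampling, over genes in a limited range of estimated reads. Many of the 55 lie above that range, and the part of sampling in their spread was not tested. Depth and the 3 libraries per diet both limit the precision.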
